A study of Mus musculus with 22 samples.

Results

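The striated muscle sarcomere and calcium genes are 48 genes for the filaments, scaffolds, calcium handling proteins and acetylcholine receptor subunits of skeletal and cardiac muscle cells. They were chosen by what their products do, with a higher skeletal muscle signal in E11.5 Wnt5a mutant tracheas already known, and they are 48 of the 26202 gene symbols in the count table. Their E11.5 values are for this reason a description and carry no p-value. For the account below the genes were split into 24 skeletal genes, 5 cardiac genes, 9 genes used by the heart and also by slow or embryonic skeletal fibres, and 10 genes for scaffold proteins common to striated muscle.

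Striated muscle shortens when myosin of the thick filament pulls on actin of the thin filament within repeating units called sarcomeres. Calcium released from the sarcoplasmic reticulum binds the troponin complex and frees actin for myosin, and a calcium pump then returns the calcium to the store. The trachea carries a strip of smooth muscle, which lacks sarcomeres and troponin, while striated fibres lie near it in the larynx and in the upper oesophagus and cardiac muscle lies close to it in the early embryo.

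The RNA came from mouse tracheas at E11.5, taken whole, and at E13.5, sorted into populations. The E11.5 controls were Wnt5a f/f (n = 5 libraries) and the mutants Dermo1Cre; Wnt5a f/f (n = 4), in which the Cre acts in mesenchyme, so epithelium and other lineages keep the floxed gene. At E13.5 the muscle population was positive for the gamma SMA eGFP reporter, a transgene of smooth muscle, the epithelium was positive for EpCAM, and the chondroblast population was negative for both. The sorted controls carried the eGFP reporter with either Bmp4 f/f or Notum 300/300, and which of these each library has is not known here (n = 2 each for muscle, epithelium and chondroblasts). As controls of the Notum mutant chondroblasts the paper names Notum 300/300. The Notum mutants were chondroblasts of Notum 150/150; gamma SMA eGFP embryos (n = 3), where mutants B and C carry 1 number in their columns and mutant A another, for a reason not given. Each sorted group has 1 library fewer than the labels list. Each sample pooled 5 tracheas. Libraries are lettered within their group, and the letters pair nothing across groups at E13.5 except that all control libraries A carry the earlier and all control libraries B the later of the dates in the column names. All Notum mutant libraries carry the later date.

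Total counts ran from 6880660 in control E to 21678177 in chondroblast A. Levels are CPM, shares of a library's counts after TMM scaling over the 18 libraries, SE stands for standard error, and 3 counts, the most that a reading of 0 allows, correspond to 0.436 CPM in control E and 0.138 CPM in chondroblast A before that scaling. In bulk RNA such as this, fewer cells of a type and less RNA per cell cannot be told apart. Several libraries stood apart from the others of their group and are named where a result rests on them. At E11.5, control E had the lowest total and the highest level of the heart peptide gene Nppa, 87.2 CPM against 0 to 3.41 CPM in the other controls. Mutant C had the highest summed level of the 8 neuron and glia markers, 515 CPM against 60.1 to 156 CPM in the other mutants. At E13.5, chondroblast A held 79027 CPM of 9 red cell genes against 7979 CPM in chondroblast B, and muscle A and B differed by more than 10-fold in several skeletal genes. Epithelium A and B held 219 and 0.26 CPM of the macrophage markers, and 16.5 and 575 CPM of the red cell genes. Every comparison of muscle with epithelium rests on these libraries.

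Wnt5a, the gene that the E11.5 mutants lack in mesenchyme, measured 159, 88.0, 89.6, 84.2 and 62.5 CPM across controls A to E against 126, 77.9, 46.3 and 87.7 CPM across mutants A to D. The groups overlapped, with a log2 fold change of -0.20 (SE 0.30), so the level of Wnt5a does not tell the groups apart. Notum, the targeted gene of the other mutants, measured 13.7 and 86.0 CPM in control chondroblasts A and B and 33.3, 35.3 and 13.7 CPM in Notum mutants A to C, which lie between the controls or level with chondroblast A. Counts that cover a gene as a whole need not show the loss of part of it, and every direction below rests on the labels of the libraries.

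At E11.5 some of the skeletal sarcomere genes were higher in the libraries labelled mutant than in the controls, and others were not. Of the 48 genes, 39 passed the filter on low counts (1 CPM or higher in over 50% of a group's libraries). Of these, 12 were higher in the mutants and 0 lower at an unadjusted p under 0.05 (edgeR) and a fold change over 1.5. The paper used these 2 cutoffs with DESeq2. It also required FPKM, a level per length of transcript, over 1 in more than 50% of the replicates of a condition. That condition was not applied here, and the 2 cutoffs alone are called the study's thresholds. Over all 14663 genes tested, 1.19% were higher and 2.53% lower at these thresholds. Because the members were chosen with this contrast known, nothing is read from their count, and the difference between classes was not tested. Of the 12, Mybph, Lmod3 and Chrng passed the filter through the mutants and not through the controls, which favours genes that are higher there. By class, 10 of the 20 skeletal genes tested and 2 of the 7 shared heart and slow or embryonic genes tested were higher, against 0 of 5 cardiac and 0 of 7 scaffold genes. The median log2 fold change was 1.06 for the skeletal genes, -0.79 for the cardiac genes, 0.64 for the shared genes and -0.44 for the scaffold genes, beside -0.02 for all genes tested. The filter takes part in the skeletal median through Mybph, Lmod3 and Chrng. Over the 36 members that passed it in the controls the median was 0.12, against 0.59 for all 39, and that of the skeletal genes alone is not given here. In 8 genes every mutant lay above every control (7 skeletal genes and Casq2), as in 99 of the 14663 genes. The count of 12 was 8 with the 18 libraries in 1 fit, which lost Actc1, Lmod3, Mybpc1 and Mylpf, and 13 with DESeq2, which added Actn2. With 1 library left out it ran from 9 without mutant A to 16 without control E. The fits without control E and without mutant C added Actn2 and Myh7, and those without mutant C or mutant D added Chrnd.

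**Figure D1:**
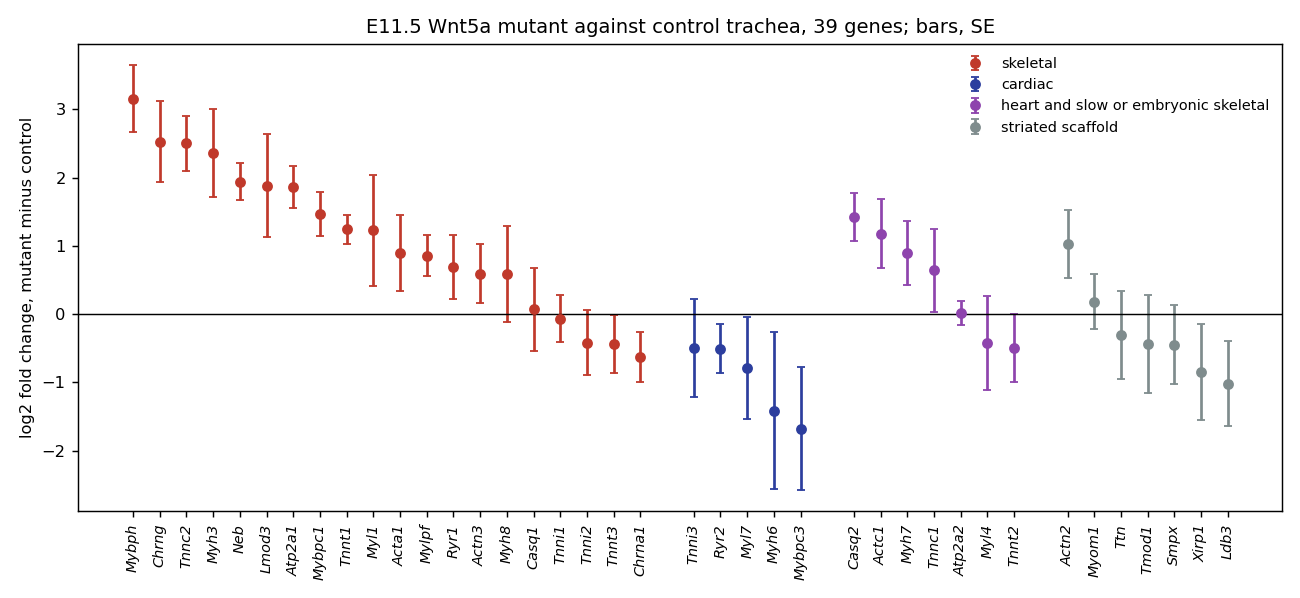
Fitted log2 fold change of mutant over control with its standard error (bars) for the 39 genes that passed the filter at E11.5, grouped by class (n = 4 and 5 libraries). The skeletal genes run from 3.16 for Mybph to -0.63 for Chrna1, and all 5 cardiac genes lie under 0, with standard errors of up to 1.15.

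Among the thick filament genes, Myh3 encodes the embryonic skeletal myosin heavy chain, one of the first that a new fibre makes. It measured 0.852, 9.21, 3.38, 3.25 and 1.88 CPM across controls A to E against 24.9, 25.7, 4.02 and 22.9 CPM across mutants A to D. Mutants A, B and D were above every control, while mutant C lay under control B, so the groups overlapped at a log2 fold change of 2.36 (SE 0.64). Mybph, for myosin binding protein H, measured 0.501, 3.07, 0.691, 2.18 and 0.783 CPM across controls A to E against 15.4, 11.8, 10.3 and 15.6 CPM across mutants A to D, with no overlap and a log2 fold change of 3.16 (SE 0.49). Mybpc1, for slow skeletal myosin binding protein C, which trims the cross-bridge cycle, measured 1.90, 3.42, 3.59, 2.02 and 3.91 CPM across controls A to E against 9.43, 7.80, 5.10 and 10.4 CPM across mutants A to D. Here too the mutants were all above the controls, at 1.47 (SE 0.32). The light chain genes were less uniform. Mylpf, for the regulatory light chain of fast fibres, measured 3.36, 8.81, 3.66, 4.53 and 5.95 CPM across controls A to E against 11.8, 8.45, 9.12 and 8.72 CPM across mutants A to D, and control B lay within the mutant range. Its log2 fold change was 0.86 (SE 0.31), and without mutant A it no longer passed the thresholds. Myl1, for the essential light chain of fast fibres, measured 0.601, 2.67, 2.21, 4.74 and 24.6 CPM across controls A to E against 15.9, 9.32, 25.7 and 11.1 CPM across mutants A to D. Control E alone reached the mutant levels, and the log2 fold change of 1.23 (SE 0.81) became 2.61 without it and 2.70 with the column number as a block, a fit in which control E, the only library with its number, has no weight in the contrast. The perinatal heavy chain gene Myh8 stayed between 0.200 and 2.78 CPM in the 9 libraries, with overlapping groups. The adult fast heavy chain genes Myh1 and Myh2, which share 25.4% and 22.9% of their 50-base words with another gene and cannot be separated with confidence, did not pass the filter and were at most 1.16 and 1.10 CPM.

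In the thin filament, Neb encodes nebulin, the giant protein that runs along skeletal actin and sets its length. Neb measured 3.51, 4.46, 4.76, 4.21 and 5.95 CPM across controls A to E against 22.3, 11.8, 12.8 and 22.9 CPM across mutants A to D. The lowest mutant was well above the highest control, and the log2 fold change was 1.94 (SE 0.27), 3.84-fold. Lmod3, for a leiomodin that helps skeletal actin filaments to grow, was near the floor in the controls and measured 0, 0.348, 0.483, 0.213 and 1.10 CPM across controls A to E against 1.79, 1.91, 0.760 and 1.08 CPM across mutants A to D. Control E reached above mutants C and D, and the log2 fold change of 1.88 (SE 0.76) passed the thresholds only with controls B and D and mutants A and B all in the fit. Acta1, for skeletal alpha-actin, measured 1.85, 3.19, 4.14, 6.18 and 18.8 CPM across controls A to E against 10.6, 14.3, 14.3 and 10.1 CPM across mutants A to D. Control E exceeded all mutants, the other controls lay under all of them, and the log2 fold change of 0.89 (SE 0.55) became 1.68 without control E and 1.78 with the column number as a block. Both of these fits carried Acta1 and Myl1 past the thresholds. Actn3, for the alpha-actinin that anchors actin in fast fibres, overlapped between groups, at 0.59 (SE 0.43).

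Troponin, the calcium switch on the thin filament, has a tropomyosin-binding, a calcium-binding and an inhibitory subunit, and the skeletal subunits split. Tnnt1, the tropomyosin-binding subunit of slow fibres, measured 7.87, 15.2, 12.5, 14.5 and 10.3 CPM across controls A to E against 33.9, 30.7, 26.0 and 24.3 CPM across mutants A to D. No control reached the mutants, at a log2 fold change of 1.24 (SE 0.22). Tnnc2, the calcium-binding subunit of fast fibres, measured 0.601, 1.51, 0.552, 1.39 and 1.10 CPM across controls A to E against 7.64, 7.31, 4.72 and 3.76 CPM across mutants A to D, again without overlap and at 2.50 (SE 0.41). Its exons overlap Ube2c on the other strand over 74% of their length, the library kit does not mark strands, and Ube2c, at 218 to 315 CPM in both groups, did not separate them. Tnni1, the inhibitory subunit of slow fibres and the most abundant skeletal member by CPM, measured 42.8, 64.5, 94.9, 61.5 and 129 CPM across controls A to E against 60.6, 97.1, 102 and 40.2 CPM across mutants A to D, with a log2 fold change of -0.07 (SE 0.34) and wide overlap. The fast subunits Tnnt3 and Tnni2 also overlapped, at -0.44 (SE 0.43) and -0.42 (SE 0.48).

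**Figure D2:**
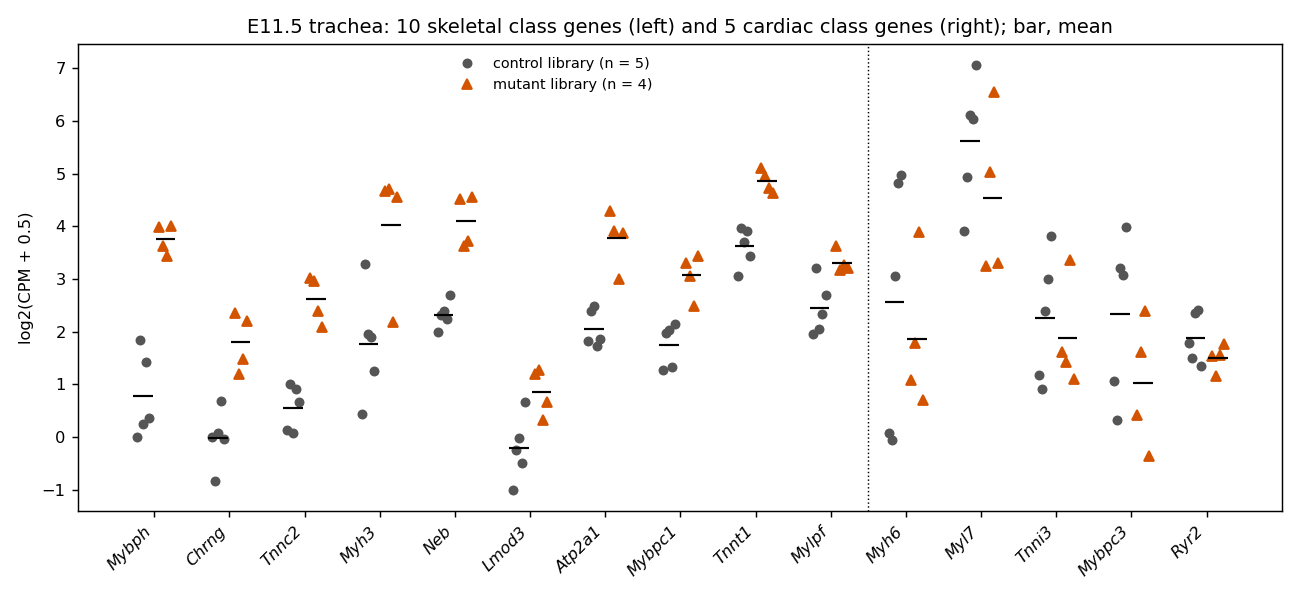
Levels of the 10 skeletal genes past the thresholds and the 5 cardiac genes in each E11.5 library, as log2(CPM + 0.5), with the mean of each group as a bar. The mutant points of Neb lie at 11.8 to 22.9 CPM, above the highest control at 5.95 CPM, while those of Myl7 run from 9.01 to 93.7 CPM and overlap the controls, at 14.5 to 133 CPM.

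Of the calcium and membrane genes, Atp2a1 encodes the calcium pump of fast skeletal reticulum. It measured 3.06, 4.75, 5.11, 2.82 and 3.13 CPM across controls A to E against 19.1, 14.6, 7.55 and 14.1 CPM across mutants A to D. The mutants were all higher, at a log2 fold change of 1.87 (SE 0.31). Chrng, for the gamma subunit that marks the fetal acetylcholine receptor of muscle, measured 0.501, 0.0579, 0.552, 1.12 and 0.470 CPM across controls A to E against 4.58, 1.80, 2.28 and 4.10 CPM across mutants A to D, without overlap and at 2.53 (SE 0.60). Chrnd, for the delta subunit, lies next to Chrng on chromosome 1 and did not pass the filter, at 0, 0.0579, 0.483, 0.320 and 0.626 CPM across controls A to E against 2.16, 1.31, 0.489 and 0.342 CPM across mutants A to D. Chrna1, for the alpha subunit, went the other way, at 33.0, 32.6, 65.8, 22 and 91.0 CPM across controls A to E against 36.3, 32.3, 31.5 and 26.2 CPM across mutants A to D. Controls C and E were its highest libraries, its log2 fold change was -0.63 (SE 0.37), and without control D it passed the thresholds as lower in the mutants. At E13.5 Chrna1 stood at 24.1 CPM or more in every sorted library, epithelium included. Ryr1, the release channel of skeletal reticulum, and Casq1, the calcium store protein of fast fibres, overlapped between groups, at 0.69 (SE 0.47) and 0.07 (SE 0.61). Ckm, the creatine kinase of mature muscle, was at most 0.627 CPM in the 9 libraries and did not pass the filter.

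The 5 cardiac genes were uneven among libraries of the same group. Myl7, for the regulatory light chain of atrial muscle, measured 14.5, 30.0, 68.9, 65.3 and 133 CPM across controls A to E against 9.01, 32.0, 93.7 and 9.40 CPM across mutants A to D. Mutants A and D held the lowest levels and control E the highest, with mutant C above 4 of the 5 controls. Myh6, for the heavy chain of atrial and adult heart, which shares 20.2% of its 50-base words with another gene, measured 0.551, 0.464, 7.80, 27.8 and 30.8 CPM across controls A to E against 1.63, 2.94, 14.3 and 1.14 CPM across mutants A to D. Controls A and B were under every mutant, and controls D and E were highest. Mybpc3, for cardiac myosin binding protein C, measured 1.60, 0.753, 8.77, 7.99 and 15.3 CPM across controls A to E against 0.843, 2.56, 4.78 and 0.285 CPM across mutants A to D, Tnni3, for the cardiac inhibitory troponin, 1.75, 1.39, 4.76, 7.46 and 13.6 CPM across controls A to E against 2.58, 2.18, 9.72 and 1.65 CPM across mutants A to D. All these groups overlapped, with log2 fold changes of -0.79 (SE 0.75) for Myl7, -1.42 (SE 1.15) for Myh6, -1.68 (SE 0.90) for Mybpc3 and -0.50 (SE 0.72) for Tnni3. Ryr2, the release channel of heart muscle that some neurons also use, was the most even of the 5, at 2.96, 2.32, 4.63, 4.85 and 2.04 CPM across controls A to E against 2.42, 1.75, 2.44 and 2.91 CPM across mutants A to D, and its log2 fold change was -0.51 (SE 0.36). The count of 0 past the thresholds (edgeR's test) was 1 in DESeq2's Wald test, and became 2 without mutant C (Mybpc3 and Myl7, lower) and 1 without control A or control B (Mybpc3, lower).

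Genes used by both the heart and slow or embryonic skeletal fibres fell between the classes. Actc1, for cardiac alpha-actin, which embryonic skeletal fibres also make in quantity, was on average the most abundant of them and measured 19.9, 31.8, 51.0, 63.9 and 166 CPM across controls A to E against 168, 99.1, 214 and 121 CPM across mutants A to D. Only control E reached the mutants, and the log2 fold change was 1.18 (SE 0.51). It no longer passed the thresholds without control A, B, C or D or without mutant A or C, where it lay between 0.96 and 1.19, and it was 1.86 without control E. Casq2, the calcium store protein of heart and slow fibres, measured 1.503, 5.39, 2.00, 3.14 and 2.50 CPM across controls A to E against 7.43, 9.16, 7.44 and 7.29 CPM across mutants A to D. Every mutant was above every control, at 1.42 (SE 0.36). Tnnc1, the calcium-binding troponin of heart and slow fibres, measured 1.85, 4.75, 9.25, 16.5 and 24.3 CPM across controls A to E against 10.4, 23.8, 25.5 and 10.03 CPM across mutants A to D, and Myh7, their heavy chain, 1.503, 1.33, 1.31, 0.852 and 3.44 CPM across controls A to E against 2.42, 4.85, 1.68 and 3.19 CPM across mutants A to D. Both overlapped, at 0.64 (SE 0.61) and 0.89 (SE 0.47). Tnnt2 and Myl4, the troponin and light chain of the embryonic heart, followed the cardiac genes in control E, at 69.0 and 40.5 CPM, and had log2 fold changes of -0.50 (SE 0.50) and -0.43 (SE 0.69). Atp2a2, the calcium pump of heart and slow fibres and of most other cells, stood at 41.5 to 67.5 CPM in all 9 libraries. Myl2 and Myl3, light chains of ventricle and slow fibres, did not pass the filter, and Myl3 reached 12.2 CPM in control E against at most 0.818 CPM elsewhere.

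The scaffold genes, common to skeletal and cardiac sarcomeres, did not separate the groups. Ttn, for titin, the spring that spans from Z-disc to M-band, measured 5.96, 11.8, 22.3, 19.3 and 82.5 CPM across controls A to E against 30.2, 13.8, 13.2 and 34.0 CPM across mutants A to D. Control E was highest, controls A and B lay under all mutants and controls C and D among them. Actn2, for the Z-disc alpha-actinin, came closest to a difference, at 1.30, 5.62, 5.59, 8.41 and 11.6 CPM across controls A to E against 15.3, 16.9, 5.65 and 14.4 CPM across mutants A to D. Mutant C fell among the controls, and the log2 fold change was 1.03 (SE 0.50). Tmod1, which caps the pointed end of actin filaments, measured 1.80, 4.34, 11.1, 7.08 and 33.5 CPM across controls A to E against 4.21, 4.53, 15.0 and 9.69 CPM across mutants A to D, and its exons overlap Tstd2 on the other strand over 32.6% of their length. Smpx, for a small protein of the costamere, measured 9.42, 4.75, 3.11, 9.75 and 18.2 CPM across controls A to E against 5.06, 1.69, 7.44 and 12.1 CPM across mutants A to D, and neither gene set the groups apart. Myom1, a cross-linker of the M-band, and Ldb3, which ties the Z-disc together, had log2 fold changes of 0.18 (SE 0.40) and -1.02 (SE 0.62). Xirp1, an actin-binding repair protein, was at most 4.54 CPM. Tcap, Nrap and Myom2 did not pass the filter. With the column number as a block, Actn2, Myh7, Tnnc1, Acta1 and Myl1 joined the genes past the thresholds, a count of 17 in place of 12. Control E has no weight in that fit, and leaving out control E alone gave 16, with all of these but Tnnc1.

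Summed over the 24 skeletal genes the level was 111, 164, 219.5, 145 and 318 CPM across controls A to E against 294, 291, 274 and 229.5 CPM across mutants A to D. Control E exceeded all mutants on this sum through Tnni1 and Chrna1, and the other controls lay under all of them. Over the other 22 genes the sum was 35.0, 66.7, 58.8, 61.8 and 97.99 CPM in the controls and 197.5, 162, 141 and 163 CPM in the mutants, so every control lay under every mutant. Summed over the 5 cardiac genes it was 21.4, 34.9, 94.9, 113 and 195 CPM in the controls and 16.5, 41.4, 125 and 15.4 CPM in the mutants, so mutant C and controls C to E were high and mutants A and D low. The 9 shared genes summed to 98.8, 121, 170.0, 180.0 and 378 CPM in the controls and 272, 237, 359 and 213 CPM in the mutants, and the 10 scaffold genes to 23.2, 32.6, 53.7, 56.9 and 166 and 64.8, 43.7, 50.2 and 81.7 CPM.

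**Figure D3:**
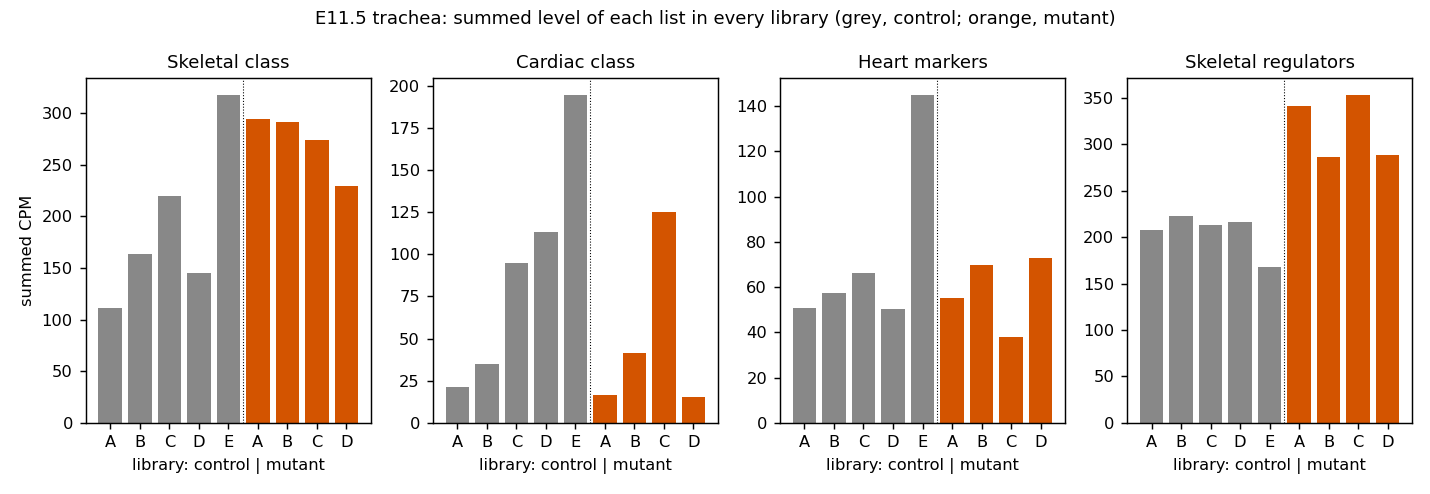
Summed CPM of the 24 skeletal genes, the 5 cardiac genes, 10 heart markers that are not sarcomere genes and 16 regulators of skeletal muscle in each E11.5 library (grey, controls A to E, orange, mutants A to D). The regulators sum to at most 222 CPM in a control and at least 287 CPM in a mutant, while the heart markers reach 145 CPM in control E, 87.2 CPM of it Nppa.

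Marker lists of the tissues that could carry these genes were read beside them. The 16 regulators of skeletal muscle, led by Mef2a over the 18 libraries and by Myog in every E11.5 mutant, summed to 208, 222, 213, 216 and 168 CPM in the controls and 342, 287, 354 and 289 CPM in the mutants. Myog, which starts fibre differentiation, measured 13.48, 20.2, 13.7, 12.8 and 7.20 CPM across controls A to E against 83.4, 60.2, 84.9 and 62.4 CPM across mutants A to D, and Myod1, which commits myoblasts, 4.01, 5.39, 5.11, 3.89 and 3.13 CPM across controls A to E against 17.6, 16.2, 18.1 and 13.2 CPM across mutants A to D. The defining markers Pax7 and Myf6 were at 0 in control A, Pax7 in mutant C, and none of the 16 in the other E11.5 libraries. The 10 heart markers, led by Gja5 over the 18 libraries, by Nppa in control E and by Hand1 in mutant A, summed to 50.9, 57.4, 66.4, 50.5 and 145 CPM in the controls and 55.2, 69.8, 38.1 and 73.1 CPM in the mutants, with 0 of 6 tested past the thresholds. Of them Bmp10 was at 0 in all 9 libraries, Nppa and Nppb were at 0 in control A, Nppb in mutant D, and Irx4 in control C and in mutants B and C. The 11 smooth muscle markers, led by Acta2, summed to 625, 526, 427, 815 and 488 CPM in the controls and 716, 514, 631 and 773 CPM in the mutants, with 0 of 11 past the thresholds. The part of other tissues in the results on the 48 genes was not tested.

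Other muscle genes, not among the 48, were taken from 6 lists of 68 genes, also chosen with earlier results of these data known. Of the 44 tested at E11.5, 11 were higher and 0 lower at the thresholds, beside 1.19% and 2.53% of all genes, or 12 with the column number as a block, which added Ache. In myoblast fusion 3 of 6 were higher. Mymk, the fusogen of the myoblast membrane, measured 0.501, 1.85, 1.10, 0.959 and 1.88 CPM across controls A to E against 7.32, 5.83, 6.19 and 6.78 CPM across mutants A to D, with a log2 fold change of 2.40 (SE 0.39). Mymx, its partner, and Cdh15, the cadherin of myoblasts, had log2 fold changes of 1.99 (SE 0.45) and 1.42 (SE 0.29). At the neuromuscular junction 3 of 7 were higher, Rapsn, which clusters acetylcholine receptors, at 1.66 (SE 0.35), Musk, the receptor kinase for agrin, at 1.54 (SE 0.48), and the receptor subunit gene Chrnb1 at 0.79 (SE 0.27). In the triad and calcium list 2 of 10 were higher. Sln, the small inhibitor of the calcium pump, measured 0.251, 3.07, 0.0691, 1.76 and 0.626 CPM across controls A to E against 8.64, 7.31, 4.72 and 6.44 CPM across mutants A to D, at 2.51 (SE 0.73), and Hrc, a calcium-binding protein of the reticulum, had 1.18 (SE 0.46). Among myosin chaperones and turnover genes 2 of 5 were higher, Klhl40 at 1.56 (SE 0.43) and the myosin chaperone gene Unc45b at 0.62 (SE 0.26), and among energy genes 1 of 4, the muscle phosphoglycerate mutase gene Pgam2 at 1.01 (SE 0.41). Unc45b was no longer past the thresholds without control A, B or D or mutant A, B or C, Pgam2 without control A, B or D or mutant B or C, and Hrc without control B or mutant A or D. With the 18 libraries in 1 fit 3 were left of the 11 (Chrnb1, Mymx and Sln). Among the other sarcomere and Z-disc genes 0 of 12 passed. That list was dominated by Tpm1 and Tpm3, tropomyosin genes used by most cells, at means of 606 and 488 CPM in the controls and 531 and 519 CPM in the mutants.

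The promoters of 4 genes are shown because every mutant was above every control at E11.5 (Mybph and Chrng) or because they set the muscle population apart at E13.5. They were named after their values were seen. The windows run from 250 bases before to 50 bases after a RefSeq start site on build GRCm38.p6, and 38 of the 48 genes matched at least 1 window, 43 windows in all. Capitals mark CAGCTG, the form of the E-box (CANNTG) that textbooks give for the myogenic factors and so 1 case of CANNTG, and the CArG box of serum response factor, both sought on both strands.
Mybph (chr1:134193198-134193497, plus strand): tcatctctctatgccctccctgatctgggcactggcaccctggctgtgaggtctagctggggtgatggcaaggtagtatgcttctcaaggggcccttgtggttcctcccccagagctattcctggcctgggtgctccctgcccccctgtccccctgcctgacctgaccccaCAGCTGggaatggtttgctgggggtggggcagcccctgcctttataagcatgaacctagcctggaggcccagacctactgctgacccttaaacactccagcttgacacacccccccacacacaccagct
Chrng (chr1:87205561-87205860, plus strand): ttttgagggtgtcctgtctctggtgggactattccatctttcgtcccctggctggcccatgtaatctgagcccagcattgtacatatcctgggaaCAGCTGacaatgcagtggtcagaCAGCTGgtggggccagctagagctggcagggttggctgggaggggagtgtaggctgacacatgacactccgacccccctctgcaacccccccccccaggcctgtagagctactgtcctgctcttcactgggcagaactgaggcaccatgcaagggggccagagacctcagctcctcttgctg
Acta1 (chr8:123894726-123895025, minus strand): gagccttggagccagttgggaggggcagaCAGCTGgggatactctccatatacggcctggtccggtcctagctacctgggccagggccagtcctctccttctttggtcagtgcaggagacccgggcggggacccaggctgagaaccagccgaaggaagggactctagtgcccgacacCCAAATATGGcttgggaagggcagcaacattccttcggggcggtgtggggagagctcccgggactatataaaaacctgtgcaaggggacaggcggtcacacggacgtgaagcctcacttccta
Actc1 (chr2:114052826-114053125, minus strand): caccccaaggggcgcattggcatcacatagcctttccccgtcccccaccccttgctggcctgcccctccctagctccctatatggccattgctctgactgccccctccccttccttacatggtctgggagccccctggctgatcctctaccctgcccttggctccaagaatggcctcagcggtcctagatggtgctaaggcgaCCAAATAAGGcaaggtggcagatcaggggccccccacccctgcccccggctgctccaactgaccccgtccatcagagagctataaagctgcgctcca
The Mybph window holds 1 CAGCTG and the Chrng window 2. Of the other genes with every mutant above every control, Atp2a1 and Mybpc1 have windows with CAGCTG. The windows of Tnnt1, Tnnc2 and Casq2 hold none, and Neb matched no window. The Acta1 window holds CAGCTG and a CArG box, and the Actc1 window a CArG box without CAGCTG. Among all 32851 windows, 16.3% hold CAGCTG, as do 17 of the 43 windows of the 48 genes and 12 of the 19 windows of the skeletal class. CANNTG is in 72.3% of all windows (35 of the 43 and 16 of the 19), the MEF2 motif in 3.19% (5 of the 43 and 2 of the 19) and the CArG box in 1.63% (7 of the 43 and 1 of the 19). These matches are descriptions of letters and say nothing of binding.

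Some of the 48 genes sit side by side. Myh3, Myh2, Myh1 and Myh8 lie in that order on chromosome 11 (build GRCm38, GENCODE M21), from 67078300 to 67308634, Myh6 and Myh7 are neighbours on chromosome 14, Tnni1 and Tnnt2 lie close on chromosome 1, Tnni2 and Tnnt3 on chromosome 7, and Tnnt1 and Tnni3 on chromosome 7 at another place. In 2 of these pairs the log2 fold changes at E11.5 differed in sign. Tnnt1, of the skeletal class, had a log2 fold change of 1.24, and its cardiac neighbour Tnni3 -0.50. Likewise Myh7 had 0.89 and Myh6 -1.42. Tnni2 and Tnnt3 were alike, at -0.42 and -0.44, and Tnni1 and Tnnt2 had -0.07 and -0.50. Mybph overlaps Adora1 on the other strand over 49.9% of its exon length, with Adora1 at 1.75 to 8.36 CPM at E11.5 and 22.1 and 1.196 CPM in E13.5 muscle A and B, where Mybph had 41.3 and 0 CPM, and Atp2a1 overlaps Rabep2 over 21.9%, with Rabep2 at 22.4 to 35.7 CPM. Neither neighbour set the E11.5 groups apart, and reads of Mybph and Adora1 cannot be told apart by strand here.

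At E13.5 the reporter-positive muscle population held more RNA of the skeletal, shared and scaffold classes than the other sorted populations, and its 2 libraries differed in which genes. The sort itself was for a smooth muscle reporter, and the 11 smooth muscle markers summed to 15323 and 11784 CPM in muscle A and B against at most 232 CPM in any other sorted library. All 11 were higher in muscle than in chondroblasts and in epithelium at the study's thresholds. In muscle A, 44 of the 48 genes were above their level in muscle B, 3 were lower and 1 was equal. The share of all genes that were higher in muscle A is not given here, so nothing is read from this count. Myog measured 453 and 33.4 CPM and Myod1 111 and 1.64 CPM in muscle A and B, and the 16 regulators summed to 825 and 308 CPM. The 24 skeletal genes summed to 974 and 218 CPM, the 9 shared genes to 2235 and 836 CPM, the 10 scaffold genes to 314 and 170.0 CPM and the 5 cardiac genes to 13.01 and 7.05 CPM. Markers of other cell types differed between the same libraries. The 9 red cell genes summed to 13.01 and 3544 CPM in muscle A and B, led by Hbb-y in A and Hba-a1 in B. The 5 macrophage markers, led by Csf1r, summed to 0.416 and 70.3 CPM, with Cd68 and C1qa at 0 in A. The 8 neuron and glia markers, led by Elavl4 in A and Tubb3 in B, summed to 15.8 and 152 CPM, and the 8 chondroblast markers, led by Col2a1, to 949 and 1899 CPM, with Matn1 at 0 in B. The part of the regulators and of these lists in the difference between the libraries was not tested, and with 1 library per date the date and the library cannot be told apart.

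Several genes of early skeletal fibres were present in muscle A and at 0 or far lower in muscle B. Mybph, Myh8, Chrnd and Chrng measured 41.3, 27.4, 23.4 and 13.8 CPM in muscle A and 0 in muscle B, where 3 counts correspond to 0.182 CPM. Nrap, at 1.37 CPM, was the last of the 5 members at 1 CPM or higher in muscle A and at 0 in muscle B. How many of all genes did the same is not given here, so nothing is read from this count. Myh3 measured 83.6 and 3.21 CPM, Tnnc2 24.2 and 0.441 CPM and Neb 54.2 and 5.35 CPM, which are 26.0, 54.9 and 10.1 times the level of muscle B. By contrast, 12 of the 39 genes with at least 1 CPM in a muscle library were within 2-fold of each other in A and B, where 66.9% of all 14475 such genes were. They were Tnnt3, Myh2, Casq1, Myl7, Tnni3, Tnnt2, Myl4, Atp2a2, Ldb3, Myom1, Tmod1 and Smpx. Casq1 measured 114 and 92.0 CPM, Smpx 64.2 and 76.0 CPM, Myom1 101 and 72.9 CPM and Myl4 81.6 and 60 CPM.

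**Figure D4:**
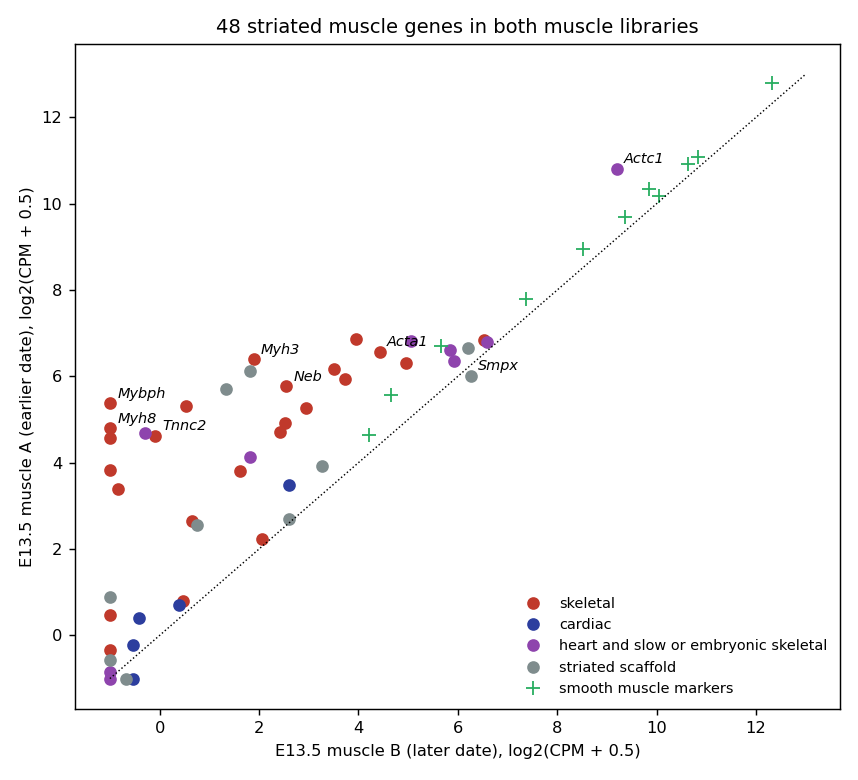
Level of each of the 48 genes in muscle A (vertical) against muscle B (horizontal), as log2(CPM + 0.5), with 11 smooth muscle markers as crosses and equality as a dotted line. The skeletal genes Mybph and Myh8 lie at 41.3 and 27.4 CPM in A and 0 in B, while Smpx lies under the line, at 64.2 and 76.0 CPM.

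Levels were divided by kilobases of coding sequence to set genes side by side. Reads of untranslated exons count towards a level but not towards the length, so genes with long untranslated parts read high. On this scale Actc1 stood first in the population among the striated muscle sarcomere and calcium genes. Its level was 1584 and 519 CPM per kilobase in muscle A and B, beside 6239 and 4522 for Acta2 and 1914 and 1607 for Actg2, the smooth muscle actins, and 83.9 and 18.6 for Acta1. Actc1 shares 0% of its 50-base words with another gene, so no such word of it also belongs to those actins. On the same scale Smpx was at 252 and 298, Tnnc1 at 234 and 68.0, Myl4 at 141 and 104, Tnnt2 at 107 and 62.8 and Casq1 at 93.6 and 75.8. Smpx has 255 coding bases in 2275 bases of exon and Myl4 579 in 4637, against 483 in 1041 for Tnnc1. The order of these genes is therefore not fixed by this scale. Myh11, the smooth muscle heavy chain, was at 325 and 267, and Neb at 2.52 and 0.249. Tpm1, of the other sarcomere and Z-disc genes, had 1872 and 1351 CPM in muscle A and B, above Actc1 at 1791 and 587 CPM. Its level per kilobase is not given here.

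Muscle was compared with chondroblasts and with epithelium in 1 fit of edgeR's quasi-likelihood test over 13687 genes, with Benjamini-Hochberg adjustment, in which 31 of the 48 genes passed the filter. Both comparisons use the same 2 muscle libraries. Against epithelium 7 of the 31 were higher at an adjusted p under 0.05 and 0 lower, where 3.58% of all genes tested passed in either direction. At the study's thresholds 20 were higher and 0 lower, beside 10.1% and 7.53% of all genes. The median log2 fold change of the 31 was 5.88, or 5.84 with genes at 0 in epithelium set to their bound, against 0.03 for all genes. Against chondroblasts 0 of the 31 passed an adjusted p under 0.05 in edgeR and 10 in DESeq2, where 0.132% of all genes passed in edgeR and 1.86% in DESeq2, and 16 were higher and 0 lower at the study's thresholds, beside 3.03% and 2.44% of all genes. The median there was 3.94, and 2.40 to 5.52 with 1 library left out. The filter takes part in both medians. Against epithelium 22 of the 31 passed it in muscle and not in epithelium, as did 13.2% of all genes tested, whose median was 2.39, and the 7 that passed it in epithelium had a median of 2.20, with 3 higher. Of the 7 genes at an adjusted p under 0.05 there, 6 (Acta1, Casq1, Myl4, Smpx, Tnnc1 and Tnnt2) passed it in muscle and not in epithelium and 1 (Actc1) in both, and of the 1809 genes tested that passed it in muscle and not in epithelium 58 reached that adjusted p. Against chondroblasts 19 passed it in muscle and not in chondroblasts, as did 5.22% of all genes, whose median was 1.83, and the 11 that passed it in chondroblasts had a median of 2.43, with 6 higher.

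Casq1, the calcium store protein of fast fibres, measured 114 and 92.0 CPM in muscle A and B, 6.97 and 6.71 CPM in chondroblasts A and B and 0.192 and 0.130 CPM in epithelium A and B. Muscle was above both other populations in each library, with a log2 fold change of 9.22 (SE 0.59) against epithelium (adjusted p = 0.00218, edgeR) and 3.92 (SE 0.44) against chondroblasts (adjusted p = 0.0544, edgeR). Actc1 measured 1791 and 587 CPM in muscle A and B, 7.88 and 1.04 CPM in chondroblasts A and B and 4.98 and 1.37 CPM in epithelium A and B. Its difference was the largest in CPM, at 8.51 (SE 1.29) against epithelium (adjusted p = 0.0227, edgeR) and 8.03 (SE 1.26) against chondroblasts (adjusted p = 0.153, edgeR). The light chain gene Myl4 measured 81.6 and 60 CPM in muscle A and B, 2.07 and 4.402 CPM in chondroblasts A and B and 0.335 and 0.0650 CPM in epithelium A and B, and against epithelium its log2 fold change was 8.34 (SE 1.02) (adjusted p = 0.0121, edgeR). Troponin genes of heart and slow fibres were part of the same pattern. Tnnc1 measured 113 and 32.9 CPM in muscle A and B, 2.33 and 0.746 CPM in chondroblasts A and B and 0.431 and 0.195 CPM in epithelium A and B, at 7.79 (SE 1.15) against epithelium (adjusted p = 0.0207, edgeR), and Tnnt2 96.7 and 56.9 CPM in muscle A and B, 0.606 and 3.28 CPM in chondroblasts A and B and 0.670 and 0.325 CPM in epithelium A and B, at 7.22 (SE 1.10) (adjusted p = 0.0233, edgeR). All libraries of muscle exceeded all others for both. Smpx measured 64.2 and 76.0 CPM in muscle A and B, 9.20 and 16.9 CPM in chondroblasts A and B and 0.862 and 0.0650 CPM in epithelium A and B, with chondroblasts between the others, at 7.15 (SE 1.15) against epithelium (adjusted p = 0.0280, edgeR). Acta1 was the last of the 7, at 94.9 and 21.03 CPM in muscle A and B, 1.57 and 0.448 CPM in chondroblasts A and B and 0.239 and 0.585 CPM in epithelium A and B, and 7.13 (SE 1.28) (adjusted p = 0.0382, edgeR).

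Only Casq1 stayed past the adjustment without muscle A, where the count against epithelium was 1 in place of 7 and that at the study's thresholds 9 in place of 20. Without muscle B 3 genes passed (Casq1, Tnnc1 and Tnnt1), and without epithelium B 3 (Casq1, Myl4 and Smpx). Without epithelium A Acta1 was lost, and without chondroblast A or B Acta1 and Smpx. A term for the date passed 6, losing Acta1 and Smpx and adding Myom1. DESeq2's Wald test passed 19, and 13.3% of all genes. Against chondroblasts the 16 at the study's thresholds were 7 without muscle A, 10 without chondroblast A, 8 without chondroblast B and 10 with a term for the date. Without epithelium A or B Casq1 passed the adjustment there, and with the date term Actc1 did.

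Other members did not pass the adjustment in the main fit. Neb measured 54.2 and 5.35 CPM in muscle A and B, 1.26 and 0.298 CPM in chondroblasts A and B and 0.144 and 0 CPM in epithelium A and B, with log2 fold changes of 8.46 (SE 2.09) against epithelium and 5.24 (SE 1.77) against chondroblasts (adjusted p = 0.0934 and 0.804, edgeR). Both epithelium levels lie about at or under what 3 counts make there, 0.146 and 0.192 CPM before scaling. The size of the fold change of Neb against epithelium is therefore not fixed by the data. Myom1, for the M-band cross-linker, measured 101 and 72.9 CPM in muscle A and B, 1.92 and 0.373 CPM in chondroblasts A and B and 2.63 and 0.325 CPM in epithelium A and B, at 5.84 (SE 1.24) and 6.22 (SE 1.26) (adjusted p = 0.0638 and 0.351, edgeR), and it passed against epithelium without epithelium A and with the date term. Ttn measured 51.7 and 2.02 CPM in muscle A and B, 3.13 and 0.373 CPM in chondroblasts A and B and 0.0479 and 0.0650 CPM in epithelium A and B, so muscle B lay within the chondroblast range. A further 3 genes that passed the filter were at 0 in both epithelium libraries. Against the floor of 3 counts per library, muscle A and B were at least 176 and 31.2-fold higher for Mybpc1, 100.3 and 17.8-fold for Casq2 and 35.4 and 33.1-fold for Ldb3. The cardiac genes were low in all sorted control populations. Their sum was 13.01 and 7.05 CPM in muscle A and B against 4.25 and 4.03 CPM in chondroblasts and 4.55 and 3.64 CPM in epithelium, but Myl7 alone put muscle first. The other 4 summed to 2.32 and 1.45 CPM in muscle A and B, 2.12 and 4.03 CPM in chondroblasts and 4.55 and 1.95 CPM in epithelium. Myl7 measured 10.7 and 5.60 CPM in muscle A and B, 2.12 and 0 CPM in chondroblasts A and B and 0 and 1.69 CPM in epithelium A and B, so both muscle libraries were above the others, with log2 fold changes of 2.93 (SE 2.60) against chondroblasts and 3.27 (SE 2.65) against epithelium (adjusted p = 1.00 and 0.578, edgeR). Tnni3 measured 1.13 and 0.819 CPM in muscle A and B, 1.67 and 2.16 CPM in chondroblasts A and B and 0.287 and 0 CPM in epithelium A and B, above epithelium and under chondroblasts. Myh6, Mybpc3 and Ryr2 were at most 0.832, 0.189 and 0.356 CPM in muscle. The heart markers summed to 29.4 and 27.4 CPM in muscle A and B, 24.6 and 4.78 CPM in chondroblasts and 3.02 and 6.44 CPM in epithelium. Atp2a2 was broad, at 111 and 95.6 CPM in muscle A and B, 63.7 and 59.4 CPM in chondroblasts A and B and 40.0 and 56.7 CPM in epithelium A and B. Myh3 and Actn2 each had more in epithelium B, 12.0 and 13.47 CPM, than in epithelium A, 0 and 2.35 CPM.

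**Figure D5:**
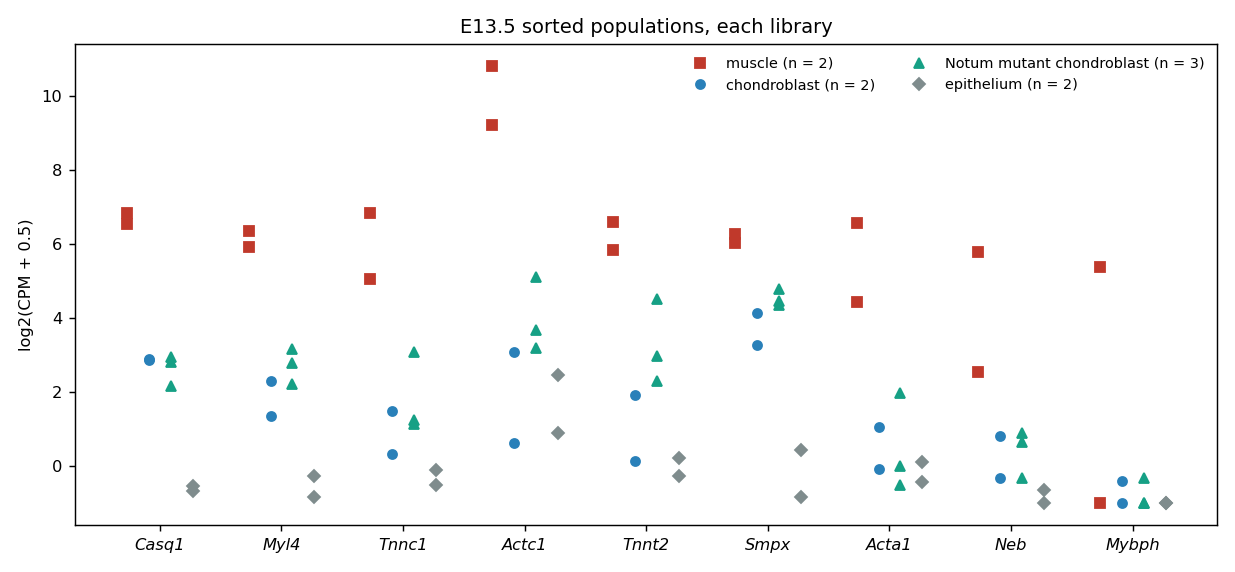
Levels of 9 genes in each E13.5 library as log2(CPM + 0.5), by sorted population. Both muscle libraries lie above all others for the first 8 genes, from Casq1, at 114 and 92.0 CPM in muscle, to Neb, while Mybph is at 41.3 CPM in muscle A and 0 in muscle B. All of the 8 but Neb had passed an adjusted p under 0.05 against epithelium (edgeR). Of all 13687 genes tested, both muscle libraries lay above both control chondroblasts in 2633 and above both epithelium libraries in 3766.

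In chondroblasts, from which the muscle reporter was excluded by the sort, a few cardiac and shared genes were higher at the study's thresholds in the libraries labelled Notum mutant. The comparison asks what loss of Notum, a secreted inhibitor of Wnt ligands, does to these cells, and 29 of the 48 genes passed its filter of 14120. In edgeR 0 of the 29 passed an adjusted p under 0.05, as did 0% of all genes tested, and DESeq2 passed 1 (Casq2) and 3.73% of all genes. At the study's thresholds 6 were higher and 1 lower, beside 5.51% and 2.9% of all genes. The median log2 fold change was 0.98, against 0.02 for all genes, but the filter takes part in this. It was passed through the mutants and not the controls by 18 of the 29 genes, among them 5 of the 6 higher ones (Casq2, Mybpc3, Myl7, Ryr2 and Tnnt2), and by 11.3% of all genes, whose median was 1.02. Over the 11 genes that passed it in the controls the median was 0.27, with 1 higher and 1 lower. All mutants carry the later date, so the comparison within a date sets 1 control against 3 mutants and is given as values only.

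Of the cardiac genes, Myl7 measured 2.12 and 0 CPM in control chondroblasts A and B and 35.9, 4.52 and 7.50 CPM in mutants A to C, Mybpc3 0 and 0.0746 CPM in control chondroblasts A and B and 4.05, 0.146 and 1.51 CPM in mutants A to C and Ryr2 0.455 and 0.149 CPM in control chondroblasts A and B and 1.68, 4.91 and 1.75 CPM in mutants A to C. Mutant A was the highest for Myl7 and Mybpc3 and mutant B for Ryr2. For Myl7 and Ryr2 no mutant overlapped the controls. For Mybpc3, mutant B and both controls lie under the 0.222 CPM that 3 counts make in chondroblast B and cannot be told apart, so the size of its fold change is not fixed by the data. Their log2 fold changes were 3.88 (SE 1.55), 5.66 (SE 1.98) and 3.16 (SE 1.00), with adjusted p = 0.383, 0.344 and 0.321 in edgeR. The shared genes Casq2, for the calcium store protein, and Tnnt2, for the troponin of the embryonic heart, measured 0.202 and 0.149 CPM in control chondroblasts A and B and 2.32, 1.51 and 2.39 CPM in mutants A to C and 0.606 and 3.28 CPM in control chondroblasts A and B and 22.1, 4.42 and 7.40 CPM in mutants A to C, in that order. Their log2 fold changes were 3.52 (SE 0.86) and 2.57 (SE 1.02) (adjusted p = 0.265 and 0.383, edgeR). Tnni1, for slow inhibitory troponin, was the sixth, at 12.7 and 3.81 CPM in control chondroblasts A and B and 35.5, 13.6 and 25.2 CPM in mutants A to C, and Myl1 was lower, at 4.25 and 2.16 CPM in control chondroblasts A and B and 0.637, 0.924 and 0.536 CPM in mutants A to C. The cardiac genes summed to 4.25 and 4.03 CPM in the controls and 59.1, 15.6 and 14.0 CPM in the mutants, and the skeletal genes to 79.0 and 70.6 CPM in the controls and 108, 71.2 and 109 CPM in the mutants. Within the later date, the control sum of 4.03 CPM lay under the lowest mutant sum of 14.0 CPM for the cardiac genes, and 70.6 under 71.2 CPM for the skeletal genes. Without Tnni1 and Chrna1 the skeletal sums overlapped, at 42.2 and 33.6 CPM in the controls and 37.1, 30.4 and 44.7 CPM in the mutants.

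These counts turned on single libraries. Without chondroblast A, which leaves 1 control, the median became 2.46. Actn3, Mybpc1, Myh3, Myl7 and Tmod1 were then set against 1 control at 0, so that the sizes of their differences are not fixed by the data. Tmod1 measured 10.6 and 0 CPM in control chondroblasts A and B and 1.77, 2.63 and 3.60 CPM in mutants A to C, and its log2 fold change of -0.96 changed sign in that fit. Without Notum mutant A or mutant C the 6 became 2 (Casq2 and Ryr2), and Myl1 was no longer lower, as also without chondroblast A. Myh8 was lower without chondroblast A, and Tmod1 beside Myl1 without chondroblast B, each against 1 control. Of the 6, Mybpc3 and Tnnt2 were lost without chondroblast A. Without chondroblast B Myl7 and Tnni1 were lost while Myh6, Myl4 and Smpx were added, and without mutant B Ryr2 was lost. DESeq2's Wald test passed 7 at these thresholds, losing Myl7 and adding Actc1 and Smpx. Beside them, the red cell genes, led by Hba-a1, summed to 79027 and 7979 CPM in control chondroblasts A and B and 9840, 7644 and 10336 CPM in the mutants, the macrophage markers, led by Csf1r, to 187 and 109 and 301, 256 and 358 CPM, and the heart markers, led by Corin in both controls and by Gja5 in the mutants, to 24.6 and 4.78 and 26.0, 15.2 and 22.6 CPM. Of the heart markers, Bmp10 was at 0 in all 5 libraries, Nkx2-5 and Irx4 in both controls and mutant C, Nppb in both controls and mutants B and C, Nppa in control A, and Tbx20 and Hand1 in control B. The chondroblast markers, led by Col2a1, summed to 2781 and 2665 and 3760, 4149 and 3351 CPM, with Matn1 at 0 in control B and mutant A. The smooth muscle markers, led by Mylk in control B and by Smtn in the others, summed to 192 and 178 and 232, 193 and 223 CPM, with Lmod1 and Kcnmb1 at 0 in control B. The neuron and glia markers, led by Stmn2 in control B and by Tubb3 in the others, summed to 208 and 326 and 305, 369.7 and 281 CPM, and the endothelial markers, led by Tek, to 93.1 and 49.6 and 63.5, 41.9 and 56.2 CPM. The 16 regulators of skeletal muscle summed to 161 and 148 CPM in the controls and 163, 168 and 146 CPM in the mutants. At the study's thresholds 3 of 5 macrophage, 2 of 7 chondroblast, 1 of 9 smooth muscle and 1 of 8 neuron and glia markers and 2 of 9 regulators tested were higher. At the same thresholds 6 of 9 red cell and 1 of 5 endothelial markers were lower, and 0 of 4 heart and 0 of 3 epithelial markers passed. The part of these lists in the difference was not tested.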

How the data were processed

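The values used are expected counts, 56.0% of them fractional, which the authors deposited as 1 table of 47248 entries and 22 columns without normalization. The submitters' processing notes name Partek, mm10 and limma, and the paper names DESeq2 and Cufflinks, while the counting tool is not given in the sources used here. RNA was amplified with SMART-Seq v4, a kit that does not mark strands. Of the columns, 18 matched the labels and 4 matched none and were not used. The labels list 3 samples for each sorted control population and 4 for the Notum mutants, 1 more than the columns used in each, and which of them has no column is not known here. Entries were summed per symbol and rounded to whole numbers. The 48 genes span 108 entries, up to 17 for Tnnt3. Genes at 1 CPM or higher in over 50% of a group's libraries were tested, after TMM scaling, with the quasi-likelihood test of edgeR 4.0.16 in R 4.3.3 with Benjamini-Hochberg adjustment, tested on simulated data. The standard error is the log2 fold change over the square root of F. DESeq2 1.42.0 was the other tool. The E11.5 groups were fitted alone, the 3 sorted control populations together and the Notum groups alone. Floors cover counting error only. How many of the regulators of skeletal muscle passed the E11.5 thresholds is not reported here. The labels list separate samples of pooled tracheas, so p-values measure the spread between such pools. No pair of libraries in a group agreed within sampling noise (median chi-square per gene at least 4.5). The least alike pair was epithelium A and B, at 44.2, followed by muscle A and B, at 29.1.

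The members, their classes and all marker and pathway lists were chosen with earlier results of these data known. Named members were, by rule, the 6 tested members of each class with the highest mean E11.5 level, the 3 with the highest mean E13.5 muscle level and those past an adjusted p under 0.05, and of the other lists the genes past the thresholds or, where none was, the 2 with the highest mean. Mybph, Tnnc2, Chrng, Atp2a1, Mybpc1, Mylpf, Lmod3, Chrnd, Myh7, Myh8 and Ckm were named after their values were seen. Column names of 4 controls and 4 mutants share a number, which the labels do not explain. Deviations from the group means over 14663 genes correlated in the same-numbered libraries with r = 0.53, 0.192, 0.138 and 0.102, all above 0.1, so the number was used as a block in an alternative fit. Control E and mutant C, whose numbers differ, had r = 0.219, above 3 of these 4. Promoter windows came from RefSeq on GRCm38.p6, and gene positions and shared 50-base words from GENCODE M21 on GRCm38. Markers of epithelium, chondroblasts and endothelium were also read: at the E11.5 thresholds 1 of 8, 1 of 6 and 0 of 5 tested were higher and 0 lower, as for 0 of 9 red cell, 0 of 5 macrophage and 0 of 8 neuron and glia genes in either direction.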

Additional observations from a re-analysis of the deposited data

Results flagged for a closer look

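Of 88 groups of 4 or 5 E11.5 values examined, 12 held a sample whose gap to its neighbour was large for the range of the group. The cutoff is set to flag about 1 in 20 groups of independent, normally spread values. CPM need not be of that kind, and the groups share libraries and genes. That rate therefore does not apply here, and nothing is read from the count. Control E accounts for 6 of them. The scaffold genes summed to 166 CPM in control E, with the next control at 56.9 CPM. The heart markers summed to 145 CPM there against 66.4 CPM, but Nppa alone made up 87.2 CPM, and the other 9 markers summed to 57.8 CPM, within the range of the other controls, 47.1 to 66.2 CPM. The regulators of skeletal muscle summed to 168 CPM, the lowest, against 208 CPM. Ttn stood at 82.5 CPM in control E against 22.3 CPM, Myl1 at 24.6 against 4.74 CPM and Acta1 at 18.8 against 6.18 CPM.

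In mutant C, Myh3 was low at 4.02 CPM against 22.9 CPM in the next mutant, while Myh6 was high at 14.3 against 2.94 CPM and Tnni3 at 9.72 against 2.58 CPM. Mutant B held the highest Casq2, 9.16 CPM against 7.44 CPM, and the highest sum of macrophage markers, 144 CPM against 90.6 CPM. Control A held the lowest sum of neuron and glia markers among the controls, 66.6 CPM against 220.4 CPM.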

How the results depend on the processing

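At E11.5 the count of skeletal genes past the thresholds was 10, and 7 to 12 under all alternatives, 8 to 12 with 1 library left out and 12 with the replicate block, where control E has no weight. Over all genes it was 546, 1451 without the filter, 299 with the 18 libraries in 1 fit, 413 with the block and 320 to 935 with 1 library left out (320 without control C, 332 without control E, 341 without mutant B, 935 without control A). The cardiac count of 0 was 1 with DESeq2 and 0 to 2 with 1 library left out, and the cardiac median of -0.79 ran from -1.89 to -0.49. A fit on the 4 numbered pairs alone, chosen after seeing the data, gave 12 skeletal genes and 425 in all. Against chondroblasts, the muscle count at adjusted p of 0 was 10 with DESeq2, 12 without the filter, 1 with the date term and 0 to 1 with 1 library left out, and the count of 16 at the thresholds was 10 with the date term and 7 to 21. Against epithelium, the 7 were 19 with DESeq2, 20 without the filter and 1 to 7, the 20 at the thresholds were 9 to 25, and the median of 5.88 was 4.19 to 8.08. For Notum, the 0 was 1 with DESeq2 and 0 to 8, the 6 were 2 to 12, the median of 0.98 was 0.54 to 2.46, and Tmod1 turned from -0.96 to 8.68 without chondroblast A, a size not fixed by the data because the control left is at 0, and was -1.98 without chondroblast B. The summed cardiac level of control chondroblasts, 4.14 CPM, was 3.94 CPM with library size only. Where a left-out library leaves 1 in a group, that library is assumed to vary like the others. How many of all genes passed in such fits is not given here, so the counts of members there have no share beside them. The cause was not tested.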

Other observations

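Outside the 48 genes and all lists, genes were picked by smallest p, 5 per direction, only where the E11.5 groups did not overlap. Genes with overlapping groups were passed over, whatever their p. Those picked as higher in the mutants, all at the thresholds, were Cdkn1a, Ctse, Frzb, 2310002L09Rik and Pam. Cdkn1a, an inhibitor of the cell cycle, measured 6.41, 4.34, 6.56, 4.05 and 5.32 CPM in the controls and 16.9, 15.1, 19.9 and 13.2 CPM in the mutants, with a log2 fold change of 1.60 (SE 0.22, adjusted p = 0.0612, edgeR). That every mutant was above every control is how these genes were picked. Frzb, a secreted Wnt inhibitor of cartilage, measured 26.9, 29.1, 24.5, 25.1 and 18.2 CPM in the controls and 85.7, 95.2, 49.6 and 45.03 CPM in the mutants, at 1.47 (SE 0.24, adjusted p = 0.107, edgeR). Ctse, for the protease cathepsin E, measured 0.200, 0.521, 1.24, 0.533 and 0.783 CPM in the controls and 4.11, 12.1, 7.87 and 5.76 CPM in the mutants, at 3.54 (SE 0.51, adjusted p = 0.0612, edgeR). Pam, the enzyme that amidates peptides, had 1.27 (SE 0.23, adjusted p = 0.182, edgeR), and 2310002L09Rik 2.80 (SE 0.49, adjusted p = 0.152, edgeR). None of the 5 passed the adjustment.

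Among genes lower in the mutants without overlap of the groups, the smallest p belonged to Lrtm2, Gldn, Smim10l2a, B3gnt7 and E130310I04Rik. Gldn, for gliomedin, which Schwann cells place at nodes, measured 2.10, 1.27, 4.00, 1.17 and 4.70 CPM in the controls and 0.316, 0.491, 0.380 and 0.513 CPM in the mutants, at -2.60 (SE 0.54, adjusted p = 0.424, edgeR). Lrtm2 had -2.09 (SE 0.42, adjusted p = 0.385, edgeR), Smim10l2a -0.71 (SE 0.16, adjusted p = 0.524, edgeR), B3gnt7 -1.19 (SE 0.26, adjusted p = 0.526, edgeR) and E130310I04Rik -2.33 (SE 0.53, adjusted p = 0.548, edgeR). In each of these 5 all mutants lay under all controls because they were picked in that way, and none passed the adjustment.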
